A study of Mus musculus with 39 samples.

Results

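The translation initiation factors of the mouse were examined as 1 gene family, whose members were found by name. A probe belonged to the family when its transcript accession carried, in the RefSeq mouse annotation, a gene symbol starting with Eif1, Eif2, Eif3, Eif4, Eif5 or Eif6. Eif2s3x, Eif2s3y and symbols of pseudogenes were left out. The family comprised 50 genes of the 16535 named genes on the array and 93 of its 41174 probes, and 31 of the 50 genes were read by more than 1 probe. No probe here is named for 6 other symbols that meet the rule, namely Eif2b3, Eif2c5, Eif3j2, Eif4a3l1, Eif4a3l2 and Eif4e1b, the last of which encodes the oocyte type of the cap-binding protein.

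The 39 arrays fell into 7 groups, all of the (B6xDBA/2)F1 strain. They comprised unfertilized metaphase II oocytes (OC, n = 7), 2-cell embryos from in vitro fertilization (IVF, n = 6), cumulus cells (Cumulus, n = 4), the somatic cells that serve as nuclear donors, and 4 groups of 2-cell embryos cloned by transfer of a cumulus cell nucleus (SCNT embryos). Cloned embryos had been left without trichostatin A, an inhibitor of histone deacetylases (TSA(-), n = 8), or had been given it at 5 nM for 8 h from activation (TSA(+), n = 6). Other clones had been injected at the pronuclear stage with mRNA for Spi-C, a transcription factor of the ETS family, at 1.0 mg/ml (n = 4) or 0.1 mg/ml (n = 4), and these 8 arrays together are called Spi-C NT. None of the 39 arrays held clones injected with a control mRNA, so Spi-C and the injection itself cannot be told apart. Embryos had been cultured for 24 h, and each array held RNA from 10 pooled oocytes or embryos or from 500 cumulus cells, amplified linearly in 2 rounds. Levels are log2 intensities relative to the 75th percentile of the same array, so they describe a transcript relative to the others of its sample, and a change of total RNA per embryo or cell cannot be told apart from them. The design text calls the arrays of a group biological replicates.

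Initiation factors bring the small ribosomal subunit, the initiator tRNA and the capped end of an mRNA together. The initiator tRNA is carried by eIF2, which the eIF2B complex recharges with GTP and which eIF2 kinases switch off by phosphorylation under stress. The complex eIF3 holds the small subunit, and eIF4F, made of the cap-binding protein eIF4E, the scaffold eIF4G and the helicase eIF4A, loads it onto the cap. The small factors eIF1 and eIF1A open the subunit for scanning to the start codon. In the mouse, Eif1a (also called eIF-1A or eIF-1a) belongs to the genes first transcribed when the genome of the fertilized egg becomes active, whereas the oocyte translates from stored maternal mRNA.

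The 75th percentile of intensity ran from 279 to 527 on the OC arrays and from 814 to 2707 on all others, and 49.1% to 60.3% of probes were well above background on OC arrays against 58.9% to 77.9% on the others. The Cumulus arrays lay on 1 slide and the Spi-C NT arrays on 2 others, with a scanner model and a software version that no other group had, so slide, scanner and group cannot be told apart in comparisons of these with other groups. The labelled tissues were checked with markers. Of 7 oocyte genes with a probe, Bmp15, Mos, Nlrp5, Oosp1 and Zp2 were at background on every Cumulus array, Zp3 was above it on 2 of 4, and Gdf9 was above it on 4 of 4, at a mean of 0.34 against 9.84 in OC. Hsd3b1, a steroid-synthesizing enzyme of follicle cells, averaged 7.77 in Cumulus and between -6.34 and -3.43 in oocytes and embryos. Of the cumulus markers, Amhr2 stood at 2.38 to 3.15 in the embryo groups against 2.21 in Cumulus, and Has2 at 0.58 in OC against 0.87 in Cumulus. Groups were compared with limma, and a gene was called at a Benjamini-Hochberg adjusted p under 0.01 over all 39541 probes tested. Counts of genes take the probe with the highest mean level of each gene, and were made for 16282 genes tested. For 47 of the 50 family genes this probe was well above background on every array.

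Eif1a, the gene of the scanning factor eIF1A, was read by a pair of probes that gave different patterns. Probe A_51_P277884 was low in oocytes and high in every embryo group and in cumulus cells. Its level on the 7 OC arrays was -1.79, -1.12, -0.36, 0.17, -0.36, -3.35 and -1.21, and on the 6 IVF arrays it was 3.58, 4.06, 4.36, 4.26, 3.95 and 4.23. The groups did not overlap, and IVF exceeded OC by 5.22 ± 0.33 (SE) on the log2 scale, a fold of 37.3 (limma, adjusted p = 1.43e-14). The 8 TSA(-) arrays read 3.06, 2.99, 2.58, 2.90, 3.16, 3.25, 3.35 and 3.18, and the 6 TSA(+) arrays read 2.96, 3.43, 3.27, 3.32, 3.29 and 3.28. Every cloned embryo pool of both groups was thus below every IVF pool. The 4 arrays at 1.0 mg/ml of Spi-C mRNA gave 3.51, 3.30, 3.16 and 3.26 and the 4 at 0.1 mg/ml ran from 2.94 to 3.12, all again below the lowest IVF array. The Cumulus arrays at 3.48, 3.69, 4.04 and 3.58 overlapped the IVF arrays.

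By group means of A_51_P277884, IVF (4.07 ± 0.28, SD) was followed by Cumulus (3.70 ± 0.25), the 1.0 mg/ml Spi-C group (3.31 ± 0.15), TSA(+) (3.26 ± 0.16), TSA(-) (3.06 ± 0.24), the 0.1 mg/ml Spi-C group (3.02 ± 0.07) and OC (-1.15 ± 1.17). IVF and Cumulus were not called different (0.38, limma adjusted p = 0.412), nor were TSA(+) and TSA(-) (0.20, limma adjusted p = 0.802) or Spi-C NT and TSA(-) (0.10, limma adjusted p = 0.549). The 1.0 mg/ml arrays all exceeded the 0.1 mg/ml arrays, by 0.29 ± 0.16 (SE), which limma did not call (adjusted p = 0.999) and for which the exact two-sided permutation test gave its smallest possible p of 0.0286, or 0.0571 after Benjamini-Hochberg adjustment over 18 tests of the Eif1a probes. On the pair of slides that held both doses this difference was 0.43 and 0.15.

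The deficit of the clones in A_51_P277884 depended on how the spread was estimated. TSA(-) was lower than IVF by 1.02 ± 0.32 (SE), with a limma adjusted p of 0.0168 that missed the threshold, in a fit whose spread took in the wide OC group. With the IVF, TSA(-) and TSA(+) arrays alone the limma adjusted p was 1.14e-05, and the exact permutation test, adjusted over the 18 tests, gave 0.003. TSA(+) was lower than IVF by 0.82 ± 0.34 (SE), with a limma adjusted p of 0.0736, of 0.000238 with those arrays alone, and of 0.00909 in the exact permutation test. Neither the fit on those arrays alone nor the permutation test had been planned. Over 47 alternative settings, these included, TSA(-) against IVF was called in 8 and TSA(+) against IVF in 4. Spi-C NT was lower than IVF by 0.91 ± 0.13 (SE, limma adjusted p = 1.52e-06). On the slides that held both groups, TSA(-) was below IVF on 3 of 3, by log2 differences of -1.01 to -0.59, and TSA(+) on 3 of 3, by -0.95 to -0.62. With slide as a term the limma adjusted p of TSA(-) against IVF was 0.141. These comparisons share the 6 IVF arrays.

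**Figure D1:**
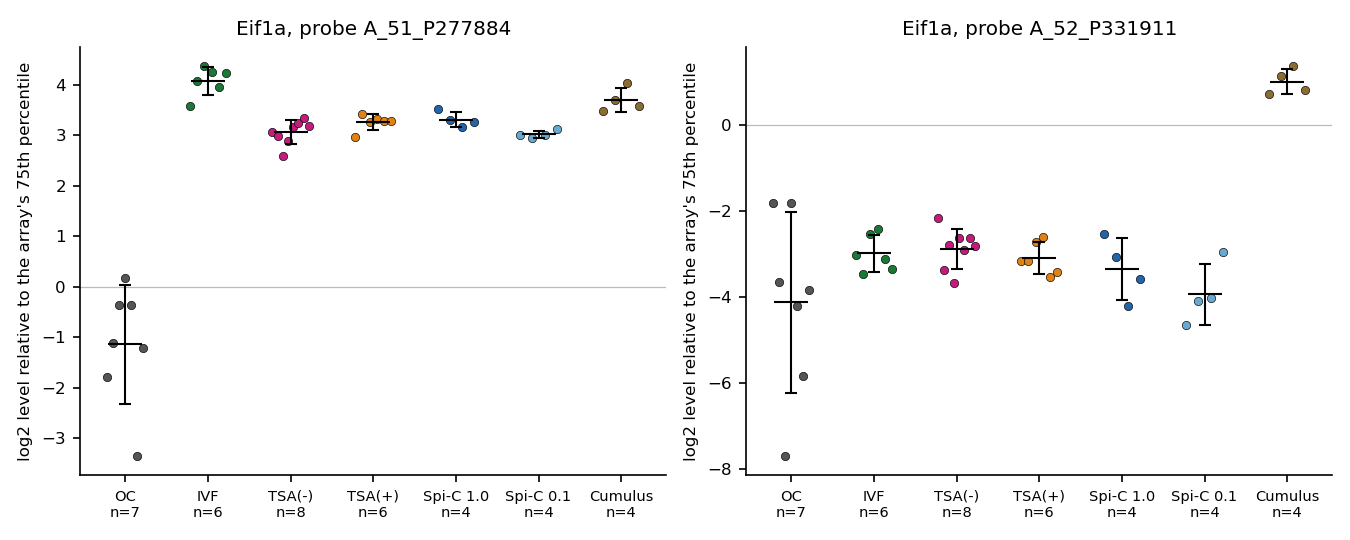
Level of the 2 Eif1a probes on each array (log2 intensity relative to the array's 75th percentile, vertical axis) in the 7 groups, with bars for the mean ± SD. With A_51_P277884 the OC arrays lie at 0.17 or lower and all embryo arrays at 2.58 or higher, whereas A_52_P331911 is highest in Cumulus.

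Probe A_52_P331911 of Eif1a separated cumulus cells from everything else. The Cumulus arrays read 0.71, 1.14, 1.36 and 0.81. The OC arrays read -1.82, -3.65, -7.68, -1.81, -4.20, -5.84 and -3.84, of which 5 of 7 were well above background, and the IVF arrays ran from -3.46 to -2.41 with a median of -3.07. IVF was lower than Cumulus by a log2 difference of -3.98 (limma adjusted p = 5.5e-06) and OC by -5.12 (limma adjusted p = 3.58e-08), and the TSA(-) and TSA(+) arrays lay between -3.67 and -2.17. No difference between oocytes and embryos or among embryos was called with this probe. IVF minus OC was 1.14 (limma adjusted p = 0.0748) and Spi-C NT minus TSA(-) was -0.77 (limma adjusted p = 0.026). Eif1a lies on chromosome 18 and has a close relative on the X chromosome, Eif1ax. Where the probes lie in the transcript, and whether either also binds the RNA of a relative, was not tested.

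Spic itself was measured by probe A_51_P389885, whose mean was 3.94 in IVF, 2.99 in TSA(+), 2.04 in TSA(-), 1.49 and 1.58 at 1.0 and 0.1 mg/ml of injected mRNA, -0.77 in OC and -5.32 in Cumulus. TSA(-) was below IVF by -1.90 (limma adjusted p = 0.00159), and the injected clones were not above the others but lower than TSA(-) by -0.51 (limma adjusted p = 0.0085). A further Spic probe, A_52_P361323, ran from 0.51 to 1.30 in the injected clones and from 0.99 to 1.93 in TSA(-). Slide and scanner cannot be told apart from the injection in this comparison. Whether either probe reads the injected mRNA was not tested. Within groups, Spic levels by A_51_P389885 were compared with Eif1a levels over arrays, for 3 groups and both Eif1a probes, 6 relations in all. The strongest, over the 6 IVF arrays with Eif1a A_51_P277884, had a Pearson r of 0.80 (exact permutation p = 0.0472, adjusted 0.283) and a Spearman rho of 0.49 (exact permutation p = 0.356, adjusted 0.882). It rested on the 2 arrays farthest from the median of Spic, and r was -0.83 without them. In the other 5 relations r lay between -0.19 and 0.29 and rho between -0.26 and 0.49.

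The comparison of IVF embryos with oocytes asks which transcripts were gained and which were lost between the egg and the 2-cell stage. The family split both ways, with 19 genes higher and 22 lower in IVF and 9 not called. Of all genes tested, 72.2% were called, 27.9% higher and 44.3% lower, so a count of 41 of 50 stands near the background. The members' median difference was -0.19 on the log2 scale against -0.71 over all genes. The scaling set the balance of directions, since quantile normalization gave 29 higher and 11 lower (all-gene median -0.18) and median centring 15 and 26 (all-gene median -1.41). On the probe counted, scalings were compared gene by gene only for the 12 genes with the largest called differences, 6 each way. These were Eif5a2, Eif1a, Eif2b5, Eif3m, Eif4ebp3 and Eif2b4, higher, and Eif2b1, Eif4e3, Eif5b, Eif4a1, Eif3a and Eif4a2, lower. Their directions held under each scaling, but sizes did not. Over the other scalings Eif2b1 ran from -4.43 to -1.41, Eif4e3 from -4.20 to -1.18, Eif5b from -4.12 to -1.24 and Eif4a1 from -3.61 to -0.59. The rise of Eif5a2 ran from 4.53 to 6.41. The IVF and OC arrays did not overlap in 37 of the 50 genes, or 74%, against 58.7% of all genes.

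**Figure D2:**
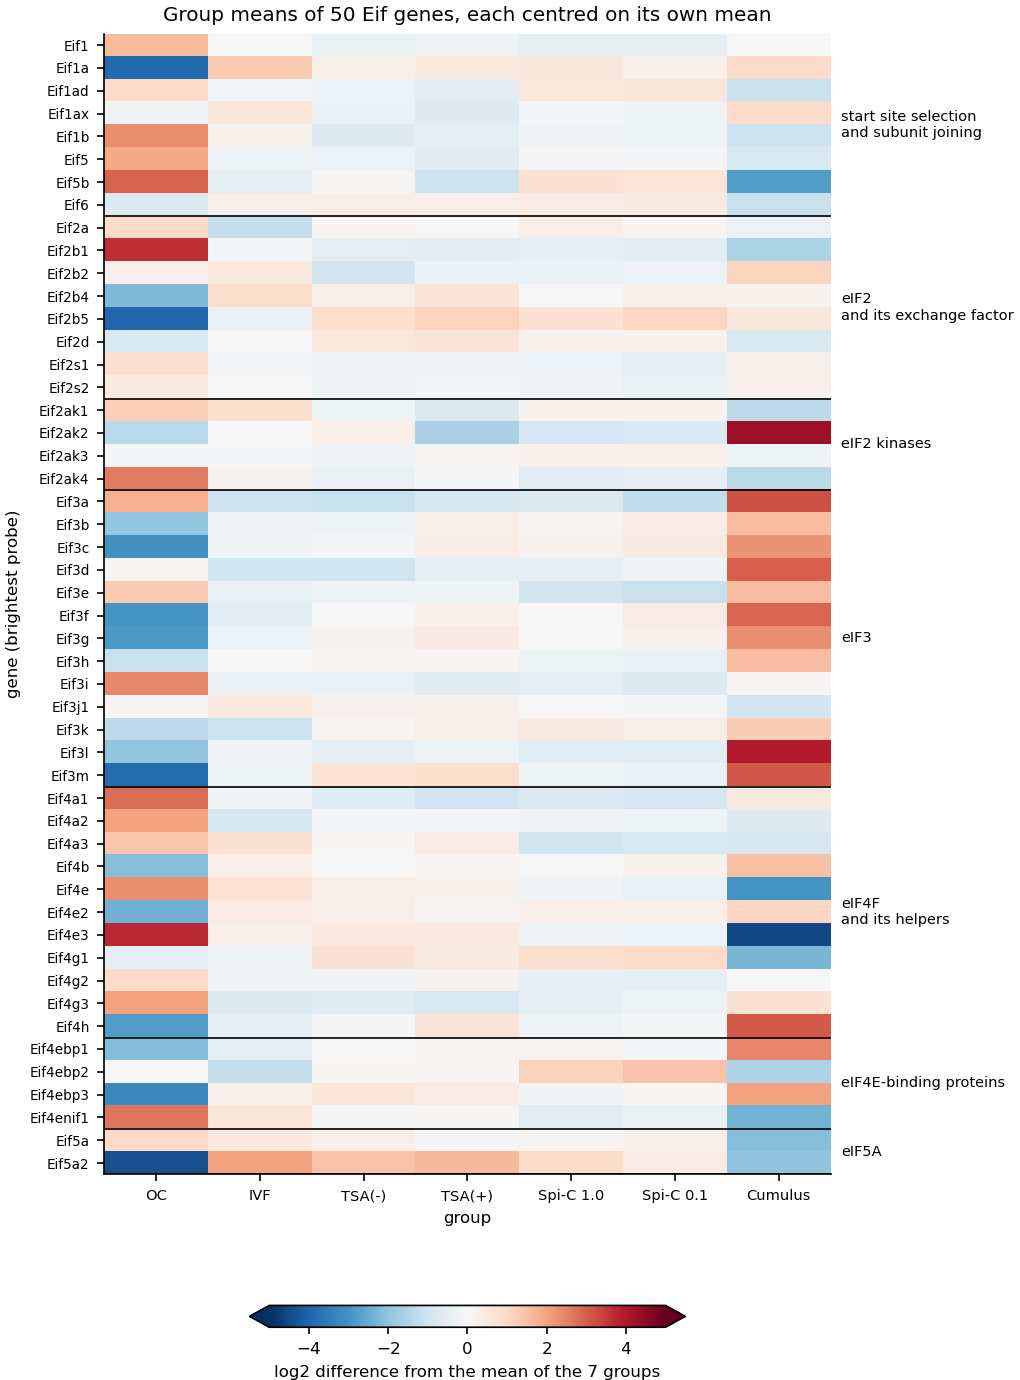
Mean level of the 50 genes in the 7 groups, each gene centred on its own mean over the groups (colour, log2 difference from -5 in blue to 5 in red), with genes in rows ordered by role. The OC column and the Cumulus column hold the strongest colours, and the 5 embryo columns hold paler ones.

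Eif5a2, a second gene for eIF5A, which eases peptide bond formation and carries the modified amino acid hypusine, rose the most. Its level was -6.37 at the lowest, -3.92 at the median and -3.52 at the highest of the OC arrays, 6 of 7 of them well above background, and 1.62, 2.21 and 2.36 in IVF. The groups lay far apart, at a log2 difference of 6.41 ± 0.34 (SE) or a fold of 85.3 (limma adjusted p = 2.38e-16). The widely expressed Eif5a was not called, at -0.53. A second Eif5a2 probe, A_52_P181759, was not called either, at 0.39.

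Members of the eIF2B exchange factor moved in opposite directions. Eif2b5, which encodes its catalytic subunit, rose from a median of -3.39 in OC (range -3.97 to -3.13) to 0.25 in IVF (-0.21 to 0.40), by 3.66 ± 0.14 (SE) or 12.6-fold (limma adjusted p = 2.17e-19). Eif2b4, for the delta subunit, rose by 3.02 ± 0.29 (limma adjusted p = 1.94e-10). Eif2b1, for the alpha subunit of the same complex, fell from 8.31 (7.88 to 8.69) to 4.53 (4.48 to 4.73), a log2 difference of -3.72 ± 0.13 or 13.2-fold (limma adjusted p = 4.05e-20), and no array of either group reached the other. Eif2b2, for the beta subunit, was not called at 0.23. Among the subunits of eIF2, Eif2s1 was lower at -0.93 and Eif2s2 was not called at -0.48, and Eif2a, for a separate tRNA-binding factor, was lower at -2.04.

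Of the 13 eIF3 genes, 7 were higher in IVF, 4 were lower and 2 were not called, with a median of 1.09. Eif3m rose from -1.51 (-3.05 to -0.69) to 2.10 (1.64 to 2.46), by 3.65 ± 0.27 (SE) or 12.5-fold (limma adjusted p = 5.58e-13). Eif3c, Eif3g, Eif3f, Eif3b, Eif3l and Eif3h were also higher, by between 1.09 and 2.88. Eif3a, for the largest subunit, which scaffolds the complex, was lower by -2.79 (limma adjusted p = 8.65e-13), and so were Eif3i at -2.71, Eif3e at -1.68 and Eif3d at -1.03. The counts were 8 and 3 with quantile normalization and 6 and 4 with median centring.

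Of the 11 genes grouped as eIF4F and its helpers, relatives of its subunits among them, 7 were lower and 3 higher, with a median of -1.11. Quantile normalization turned this to 3 lower and 6 higher, with a median of 0.66. Eif4e3, a cap-binding relative of eIF4E, fell from 8.34 (7.65 to 9.03) to 5.03 (4.40 to 5.18), by -3.50 ± 0.18 (SE) or 11.3-fold (limma adjusted p = 8.12e-17). Eif4e itself was lower at -1.63, while Eif4e2, for the cap-binding relative 4EHP, was higher at 2.82. The helicase genes Eif4a1 and Eif4a2 were lower by -2.90 and -2.78 (limma adjusted p = 5.37e-18 and 1.49e-11), though Eif4a2 was not called with quantile normalization, at -0.52. The genes of the helicase stimulators, Eif4h at 2.36 and Eif4b at 2.46, were higher. Among the proteins that bind eIF4E, Eif4ebp3, a repressor of cap-dependent translation, was higher by 3.45 ± 0.44 (limma adjusted p = 4.5e-08, 5 of 7 OC arrays well above background) and Eif4ebp1 by 1.73, whereas Eif4ebp2 was lower at -1.17 and Eif4enif1, for the transporter that takes eIF4E into the nucleus, at -2.05.

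In the group of start site selection and subunit joining, all 8 genes were called, 3 higher (Eif1a, Eif6 at 0.97 and Eif1ax at 0.79) and 5 lower, with a median of -1.32. Quantile normalization called 4 higher and 1 lower (median 0.35) and median centring 1 and 5. Eif5b, for the GTPase that joins the ribosomal subunits, fell from 7.65 (6.37 to 8.47) to 4.13 (3.50 to 4.67), by -3.42 ± 0.34 (SE) or 10.7-fold (limma adjusted p = 3.42e-10). The genes Eif1b at -2.15, Eif5 at -2.12, Eif1 at -1.61 and Eif1ad at -1.04 were the other 4. Of the 4 eIF2 kinase genes only Eif2ak4, for the amino acid sensor GCN2, was called, at -2.42, and Eif2ak2, for the double-stranded RNA sensor PKR, was well above background on 2 of 7 OC arrays.

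**Figure D3:**
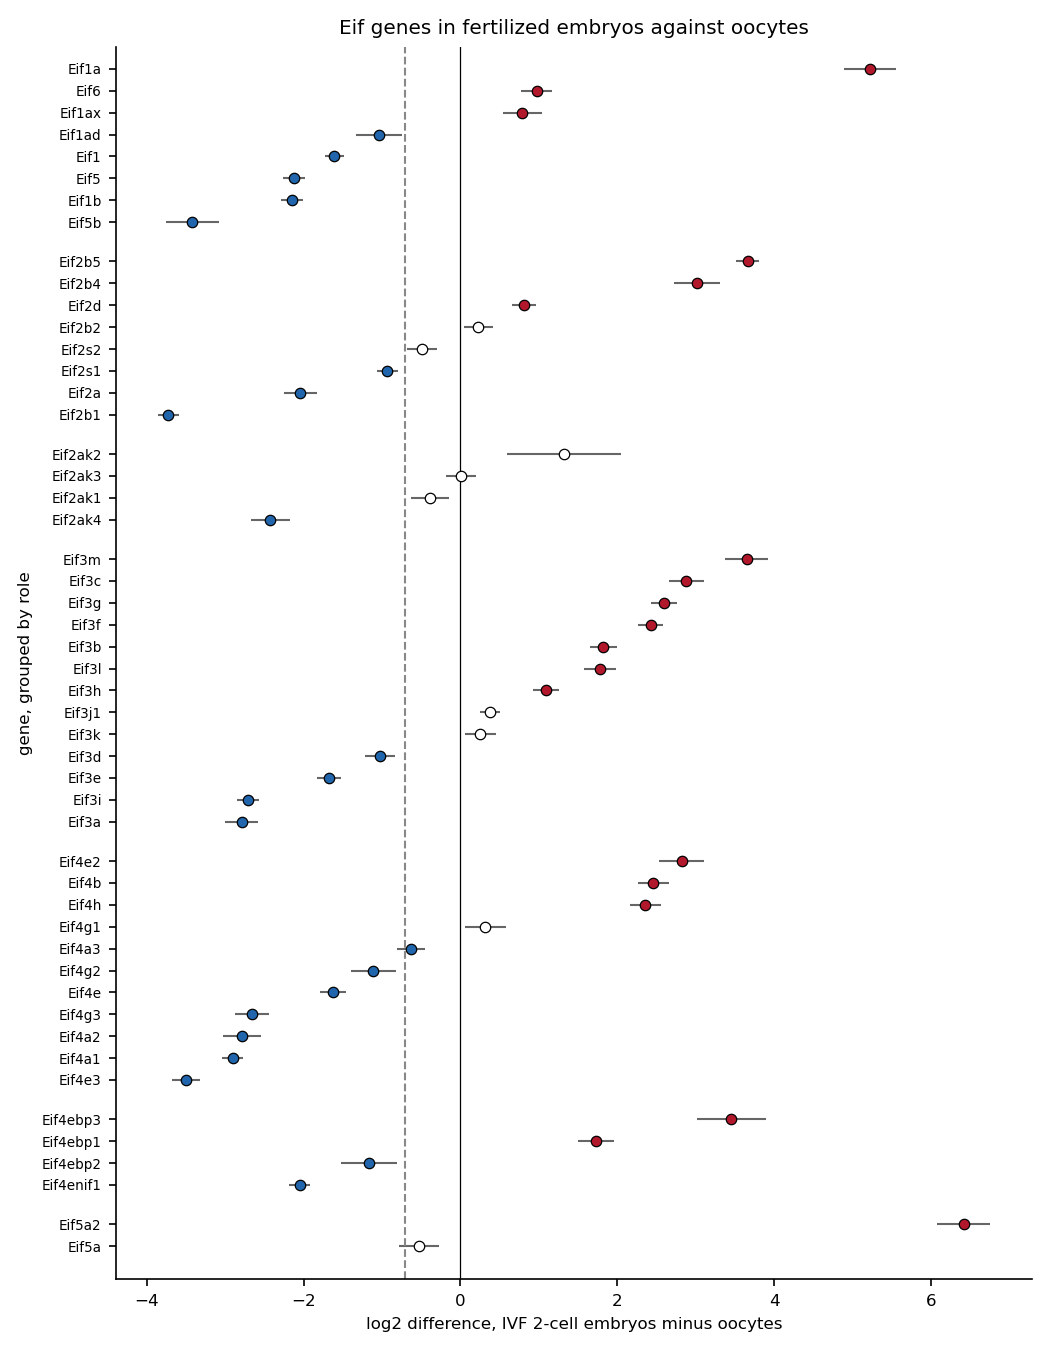
Log2 difference of IVF minus OC for the 50 genes (horizontal axis), with bars for the SE, grouped by role, filled where called by limma and with a dashed line at the median of all genes, -0.71. Points run from -3.72 for Eif2b1 to 6.41 for Eif5a2, and genes on both sides of the line stand in most roles.

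Some genes gave opposite calls by probe. Of 43 pairs of a leading and a further probe of the same gene, 5 were called in opposite directions in IVF minus OC and 10 were called with 1 probe alone. The largest gap was in Eif1ad, at -1.04 with the leading probe and 6.99 with A_51_P474688. Eif4enif1 gave -2.05 and 4.62 and Eif3c gave 2.88 and -1.86, while Eif4b (2.46 and -0.66) and Eif1ax (0.79 and -1.42) gave smaller ones. All 5 probes of Eif5b and both of Eif4e3 were lower in IVF. Pairs called with 1 probe alone numbered 12 in OC minus Cumulus, 16 in IVF minus Cumulus and 15 in Spi-C NT minus IVF. They numbered 10 in TSA(-) minus IVF and 10 in TSA(+) minus IVF.

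Promoter sequence was read from RefSeq (GRCm38.p6) for 41 of the 50 genes, from 250 bases before to 50 bases after the start of transcription, to show what the genes of the largest changes carry at their starts. Both strands were searched for CCGGAA, a core that ETS factors bind, and for GAGGAA, the core of the PU-box that Spi-C and its relatives bind. No table entry was at hand for the other 9 genes, Eif1a among them. A gene was counted when any of its windows matched, and some genes had more than 1, up to 6 for Eif5a. CCGGAA stood in 22 of the 41 genes (53.7%), against 16.7% of all 27025 genes with a window and 23.8% of the 12988 of them tested on the array. GAGGAA stood in 10 of 41 (24.4%), against 31.3% and 30.7%. Of the genes higher in IVF than in OC, 10 of 14 with a window held CCGGAA and 6 of 14 held GAGGAA, and of those lower 8 of 18 and 3 of 18 did. The motifs share their last 4 letters and cannot match at the same place. A match is a run of letters and not a measured binding site. The 3 genes with the largest rise and the 3 with the largest fall that had 1 window each are shown from 80 bases before to 20 bases after the start, 5′ to 3′ on the gene's strand, with matches in capitals, as the motif or as its reverse complement.
Eif5a2, chr3:28781197-28781296, plus strand: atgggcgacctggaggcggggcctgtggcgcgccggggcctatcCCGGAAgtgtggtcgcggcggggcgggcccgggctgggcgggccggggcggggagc
Eif2b5, chr16:20498737-20498836, plus strand: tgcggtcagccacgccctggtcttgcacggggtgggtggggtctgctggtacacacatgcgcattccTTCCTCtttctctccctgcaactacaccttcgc
Eif3m, chr2:105017008-105017107, minus strand: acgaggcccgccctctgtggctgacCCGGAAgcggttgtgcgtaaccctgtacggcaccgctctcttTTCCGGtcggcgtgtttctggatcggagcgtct
Eif2b1, chr5:124579112-124579211, minus strand: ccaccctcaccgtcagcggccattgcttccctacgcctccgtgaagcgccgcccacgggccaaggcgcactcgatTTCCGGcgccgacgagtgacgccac
Eif5b, chr1:37997930-37998029, plus strand: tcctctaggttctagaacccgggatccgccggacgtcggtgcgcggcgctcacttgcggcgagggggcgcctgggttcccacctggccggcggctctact
Eif4a1, chr11:69672404-69672503, minus strand: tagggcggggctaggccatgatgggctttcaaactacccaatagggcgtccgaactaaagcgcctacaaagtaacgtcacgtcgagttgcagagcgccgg
The ETS core lies in these 100 bases of Eif5a2, at 2 places in Eif3m and at 1 in Eif2b1, and the PU-box core in Eif2b5. The stretches of Eif5b and Eif4a1 hold neither.

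Both oocytes and IVF embryos were compared with cumulus cells, a somatic cell type. OC exceeded Cumulus in 22 genes and fell below it in 22, against 76% of all genes called (46.2% higher and 29.8% lower), with a members' median of 0.18 against 0.96 over all genes. With quantile normalization the split was 15 higher and 29 lower. Eif4e3 stood at 7.65, 8.34 and 9.03 (lowest, median and highest) in OC and at -0.28, 0.17, 0.41 and 0.12 on the Cumulus arrays, a log2 difference of 8.29 ± 0.20 (SE) or 312-fold (limma adjusted p = 5.11e-25). Eif4e differed by 5.28 (limma adjusted p = 6.48e-21), Eif4enif1 by 5.02, Eif5b by 5.74, Eif2b1 by 5.24 and Eif2ak4 by 3.93, whereas the cap-binding gene Eif4e2 was lower in OC at -3.45.

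Of the eIF3 genes 10 of 13 were lower in OC and 2 higher, with a median of -2.96. Eif3m read 5.10, 5.39, 5.74 and 5.45 in Cumulus and at most -0.69 in OC, a log2 difference of -6.96 ± 0.30 (SE) or 124-fold (limma adjusted p = 1.12e-18). Eif3l at -5.93, Eif3f at -5.87 and Eif3c at -5.25 followed, with Eif4h, for the helicase stimulator eIF4H, at -5.88. Eif2ak2 read 0.05, 0.30, -0.09 and 0.22 in Cumulus, and its OC level, at a median of -5.33, was dim. The difference was called at -5.59 (limma adjusted p = 4.4e-07). Of the 43 probe pairs 4 were called in opposite directions. A further probe gave 2.34 for Eif3c, -1.50 for Eif4enif1 and -0.84 for Eif5b, and Eif1ad gave 2.08 and -6.11.

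IVF exceeded Cumulus in 17 genes and fell below it in 21, against 64.4% of all genes called (34.6% higher and 29.8% lower), with a members' median of -0.30 against 0.15. Median centring made the split 10 and 30. Eif4e3 was again highest, at 4.79 ± 0.21 (SE) or 27.6-fold (limma adjusted p = 1.7e-18). Eif5a2, lower in oocytes than in cumulus cells, was higher in IVF by 4.01 ± 0.39 (limma adjusted p = 3.01e-10), and Eif4e by 3.65, Eif4enif1 by 2.97, Eif5a by 2.59 and Eif5b by 2.33, the last reversed at -2.39 with probe A_51_P182443. Of the 13 eIF3 genes, 11 were lower in IVF and 1, Eif3j1, was higher, with a median of -2.38. The differences of Eif3a (-4.21), Eif3l (-4.15), Eif3d (-3.99) and Eif3f (-3.45) stood beside those of Eif2ak2 (-4.27) and Eif4h (-3.52).

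**Figure D4:**
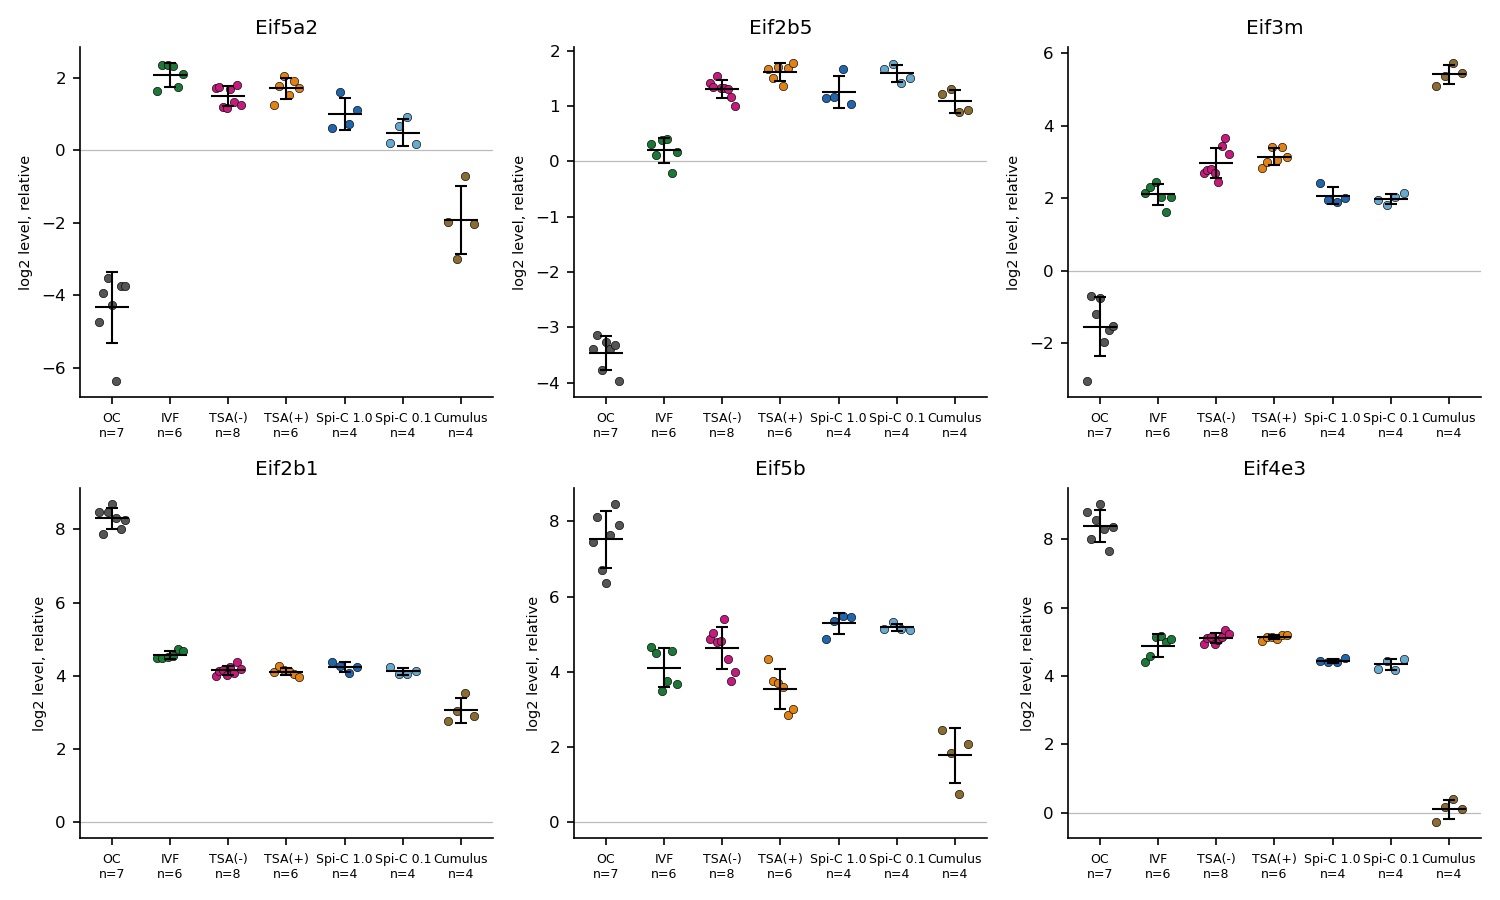
Level of Eif5a2, Eif2b5, Eif3m, Eif2b1, Eif5b and Eif4e3 on each array (points, log2 intensity relative to the array's 75th percentile) in the 7 groups, with bars for the mean ± SD. The OC points of the first 3 genes lie below all embryo points and those of the last 3 lie above them.

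Clones were compared with IVF embryos of the same stage. TSA(-) exceeded IVF in 5 genes and fell below it in 7, against 23.8% of all genes called (10.5% higher and 13.3% lower), with a members' median of -0.06 against -0.10. The count of 12 of 50 was near the background. It was 7 with slide as a term, 7 with scan day as a term and 7 without IVF replicate 6, and 16 without OC replicate 6. The groups did not overlap in 17 of the 50 genes, or 34%, against 20% of all genes.

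The exchange factor of eIF2 was again divided. Eif2b2 ran from 0.35 to 1.22 in TSA(-) with a median of 0.65, and from 1.73 to 2.41 in IVF with a median of 2.14. It was lower by -1.39 ± 0.18 (SE) or 2.61-fold (limma adjusted p = 8.81e-07), without overlap. Eif2b5 was higher by 1.11 ± 0.14 or 2.15-fold (limma adjusted p = 4.52e-07), from 0.25 at the median of IVF to 1.32, also without overlap, so that the clones moved past the IVF level on the side away from OC. Eif2a was higher by 1.22, and Eif3k, for the smallest subunit of eIF3, by 1.16, from a median of -1.50 in IVF to -0.45. Eif4ebp2, for a translation repressor that mTOR phosphorylates, was higher by 1.28, and Eif4g1, for the eIF4F scaffold, by 0.89.

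Apart from Eif2b2, the genes lower in TSA(-) were Eif2ak1, for the heme-regulated eIF2 kinase, at -1.05, Eif1ax at -0.91, Eif1b at -0.85, Eif4enif1 at -0.65, Eif4a3, for a helicase of the exon junction complex, at -0.65, and Eif4a1 at -0.47. Eif4g1 lost its call under 26 of 46 alternative settings, Eif4ebp2 and Eif4a3 under 13 each and Eif1ax under 10.

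TSA(+) exceeded IVF in 8 genes and fell below it in 6, against 24.5% of all genes called (10.8% higher and 13.7% lower), with a members' median of -0.09 against -0.18, and median centring gave 10 and 3. Eif2b5 was higher by 1.42 ± 0.15 (SE) or 2.67-fold (limma adjusted p = 2.15e-08), with all TSA(+) arrays at 1.36 to 1.78. Of the eIF3 genes 4 were higher and none lower (median 0.48), namely Eif3k at 1.30, Eif3m at 1.04, Eif3f at 0.75 and Eif3g at 0.73. Eif2a at 1.15, Eif4h at 1.08 and Eif2d, for a factor that delivers initiator tRNA without eIF2, at 0.60 completed the higher genes. Among the genes called, Eif2ak1 fell the most, to a median of -0.92 (-1.39 to -0.36) from 0.54 (0.34 to 1.08), by -1.53 ± 0.25 or 2.88-fold (limma adjusted p = 2.32e-05). Eif1ax at -1.22, Eif4a1 at -0.87, Eif2b2 at -0.80, Eif1b at -0.63 and Eif4enif1 at -0.53 were also lower. Eif4enif1 lost its call under 12 of 46 alternative settings, quantile normalization, median centring, slide and scan day among them, and Eif3m under 8, slide and scan day among them.

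No gene of the family was called between TSA(+) and TSA(-) by limma. Of all genes 0.117% were called (0.0798% higher and 0.0369% lower), and 11 of the 50 (22%) had an unadjusted p under 0.05, against 16.1% of all genes. The members' median was 0.11 against -0.02. Eif4h came nearest, at 4.79 to 5.08 in TSA(+) and 3.97 to 4.68 in TSA(-), the only gene of the 50 whose groups did not overlap (2.05% of all genes did not), with a difference of 0.74 and a limma adjusted p of 0.0534. Tukey's test called 3 genes, and limma on the IVF, TSA(-) and TSA(+) arrays alone called 1. The TSA(-) and TSA(+) comparisons with IVF share the 6 IVF arrays, and a call in 1 of them and not in the other does not show that the clones differ.

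The Spi-C mRNA comparison had been made to learn whether this ETS factor alters cloned embryos, and Eif1a is one of the genes described as downstream of it. Spi-C NT exceeded TSA(-) in 6 genes and fell below it in 10, against 24.6% of all genes called (13.6% higher and 11% lower), with a members' median of -0.03 against 0.09. Quantile normalization gave 9 and 9, and median centring 2 and 15. Scanner and slide cannot be told apart from the injection here. Eif1a was not among them with either probe. Among the genes called, Eif4ebp2 was the most raised, from -1.35, -0.49 and 0.07 (lowest, median and highest) in TSA(-) to -0.63, 0.66, 1.16 and 0.86 at 1.0 mg/ml and 0.74, 0.92, 0.98 and 0.53 at 0.1 mg/ml. Only 1 of the 8 injected arrays lay within the range of TSA(-), and the difference was 1.18 ± 0.21 (SE) or 2.26-fold (limma adjusted p = 8.75e-05). Eif1ad at 0.84, Eif3d at 0.71, Eif2b2 at 0.61, Eif3b at 0.49 and Eif1b at 0.48 were also higher, and Eif3b lost its call under 13 of 40 alternative settings.

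Among the genes called, Eif3m was the most lowered, at 2.43, 1.97, 1.90 and 2.00 with 1.0 mg/ml and 1.96, 1.81, 2.03 and 2.14 with 0.1 mg/ml, against 2.45 to 3.66 in TSA(-). No arrays overlapped, and the difference was -0.94 ± 0.15 (SE) or 1.92-fold (limma adjusted p = 3.1e-05). Eif4a3 at -0.89, Eif3e at -0.77, Eif5a2 at -0.74, Eif4e3 at -0.72 and Eif4ebp3 at -0.62 were lower too. Other probes reversed 3 of these 12 genes with a call of their own, Eif1ad at -0.61, Eif3e at 0.68 and Eif5a2 at 1.35. Of the 43 probe pairs, 15 were called with 1 probe alone. Of the genes with a promoter window, 5 of 6 that were higher and 4 of 6 that were lower held CCGGAA, and 3 of 6 in each direction held GAGGAA. The shares over the 41 family genes with a window were 53.7% and 24.4%, and over the genes tested on the array 23.8% and 30.7%. Whether the motifs bear on these changes was not tested.

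**Figure D5:**
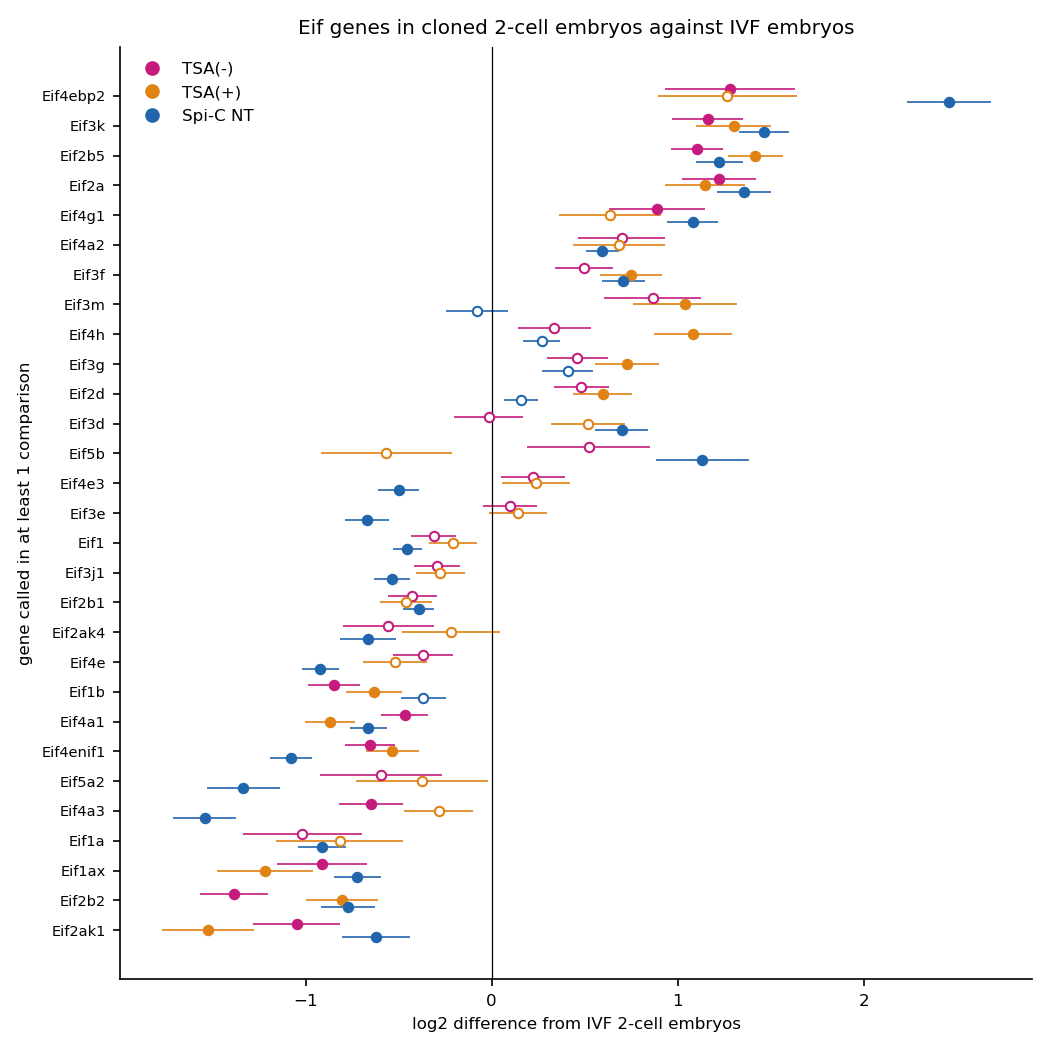
Log2 differences from IVF of TSA(-), TSA(+) and Spi-C NT embryos (horizontal axis) for the 29 genes called in at least 1 of these comparisons, with bars for the SE and filled points where called by limma. The 3 comparisons share the 6 IVF arrays, and Eif4ebp2 in Spi-C NT stands farthest to the right, at 2.46.

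Against IVF, Spi-C NT was higher in 9 genes and lower in 15, where 42.6% of all genes were called (21% higher and 21.6% lower), with a members' median of -0.25 against 0.01, and quantile normalization gave 17 and 11. Eif4ebp2 was higher by 2.46 ± 0.23 (SE) or 5.49-fold (limma adjusted p = 1.25e-09), followed by Eif3k at 1.46, Eif2a at 1.36, Eif2b5 at 1.22, Eif5b at 1.13 and Eif4g1 at 1.08. Eif4a3 was lower by -1.54 ± 0.17 or 2.91-fold (limma adjusted p = 2.82e-08), with every injected array between 2.15 and 2.63 and the IVF arrays between 3.51 and 4.13. Eif5a2 at -1.33, Eif4enif1 at -1.08, Eif4e at -0.92, Eif1a at -0.91 and Eif2b2 at -0.77 followed. The other probes of Eif1ax, Eif3e and Eif5a2 were called in the opposite direction. The pair of doses gave no call by limma in the family or among all genes (0% called), and 3 of the 50 genes (6%) had an unadjusted p under 0.05, against 3.84% of all genes, namely Eif5a2 (0.52), Eif3f (-0.35) and Eif2b5 (-0.33).

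Related genes of translation were counted beside the family. Of the 8 genes listed for the stress response downstream of the eIF2 kinases, 7 were higher in IVF than in OC and none lower. Their median was 2.78, and median centring gave 6 higher and 1 lower. They were led by Ppp1r15b, for a subunit of the phosphatase that reactivates eIF2, at 9.79, and Trib3, for a pseudokinase, at 6.65, followed by Ddit3, for the transcription factor CHOP, at 3.14, and Asns, for asparagine synthetase, at 3.08. Ppp1r15a was not called, at -0.83 (limma adjusted p = 0.0174). In OC minus Cumulus 7 of the 8 were lower and 1 was higher, where 29.8% of all genes were lower and 46.2% higher. Of the 12 elongation and termination genes 4 were higher and 6 lower in IVF minus OC (median -1.26), of the 7 poly(A)-binding and reinitiation genes with a probe tested 4 and 3 (median 0.91), and of the 10 mTOR and MNK genes 3 and 4 (median -0.16). The background for these lists and the stress response was 72.2% of all genes called, 27.9% higher and 44.3% lower. Quantile normalization gave 5 higher and 3 lower (median -0.06) for elongation and termination, 6 and 1 (median 1.88) for poly(A)-binding and reinitiation, and 4 and 4 (median 0.43) for mTOR and MNK. In TSA(-) minus IVF each of these lists had at most 3 called genes, where 23.8% of all genes were called.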

How the data were processed

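The authors deposited the scanner output of 39 Agilent arrays with 1 colour. From the scans the authors made a background-subtracted intensity with Agilent Feature Extraction, given as version 9.5.3.1 in the submitters' processing notes. A deposited table of log2 values differed from log2 of that intensity minus each array's 75th percentile, centred on each probe's median, by 0.0145 at the median over 39503 probes.

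Each array's 75th percentile was subtracted from its log2 intensities. Control spots and 5238 outlier spots were left out, which gave 1820 missing probe values, and spots of a probe were averaged. Accessions named 23374 of 41174 probes through RefSeq. Probes with an intensity of at least 10 on 1 IVF or cloned embryo array were tested with lmFit and eBayes of limma 3.58.1 (R 4.3.3, statmod 1.5.0) and Benjamini-Hochberg adjustment. One fit held all groups but Spi-C NT, another all but OC and Cumulus, and the doses were set apart in a further one. Permutation tests were exact and two-sided and were coded directly (Python 3.11.15, numpy 2.4.6), with ranks for Spearman's rho from scipy 1.17.1. Those comparing Eif1a between groups had not been planned. The limma step was tested on simulated data. Genes named were Eif1a by every probe, every gene called between TSA groups or doses, and the 6 largest called differences in each direction of each other comparison. Genes given beyond these were chosen after their values were seen. The members, roles and gene lists were chosen with earlier results of these data known. Precision is limited by how many arrays a group had and, where a probe is dim, by background. Alternatives were Tukey's test, other scalings and backgrounds, filters, thresholds, slide, scan day or replicate number as a block, and arrays left out.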

Additional observations from a re-analysis of the deposited data

Results flagged for a closer look

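In 245 sets of 4 to 8 arrays, 1 for each group and leading probe of the 34 genes named by rule, with both probes of Eif1a, 16 had a highest or lowest array that stood apart by Dixon's criterion, and chance gives about 1 in 20. In oocytes, Eif1ad was 3.88 on replicate 2 (others at most 2.54), Eif2ak1 was -0.32 on replicate 2 (others at least 1.12), Eif3a was 1.23 on replicate 6 (others at least 2.00), Eif3l was 2.10 on replicate 1 (others at most 1.18) and Eif5a2 was -6.37 on replicate 5 (others at least -4.73). In IVF embryos, Eif3k was -2.05 on replicate 5 (others at least -1.56). In TSA(-) clones, Eif5a was 3.05 on replicate 6 (others at least 3.70).

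In TSA(+) clones, replicate 1 was lowest both for Eif1a with A_51_P277884, at 2.96 (others 3.27 to 3.43), and for Eif3f, at 2.31 (others at least 2.52). Eif3l was 2.24 on replicate 2 (others at least 2.66) and Eif4a3 was 3.89 on replicate 5 (others at most 3.58). With 1.0 mg/ml of Spi-C mRNA, Eif5a was 3.49 on replicate 4 (others at least 3.56). With 0.1 mg/ml, replicate 1 was highest for Eif3k, at 0.16 (others at most -0.24), and lowest for Eif3l, at 1.96 (others at least 2.50), Eif5b was 5.33 on replicate 2 (others at most 5.15), and the dim Eif2ak2 was -8.81 on replicate 3 (others at least -3.61).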

How the results depend on the processing

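Recalculations of single genes covered only the 34 genes named by rule, chosen, apart from Eif1a, for the largest called differences. Of 4305 such recalculations, 4153 kept direction and call, 126 lost a call, 18 gained one and 8 reversed. The reversals were all of Eif1a values that were not called. With A_51_P277884 these were -0.52 (IVF minus Cumulus) and -0.0743 (Spi-C NT minus TSA(-)) with median centring and -0.0505 (TSA(+) minus TSA(-)) with scan day as a term. With A_52_P331911 they were -0.23 (IVF minus OC, normexp), 0.0217 and 0.11 (TSA(+) minus IVF, quantile and median centring), 0.26 (TSA(+) minus TSA(-), slide) and -0.58 (TSA(-) minus IVF, slide). The genes called in TSA(-) minus IVF numbered 19 at an adjusted p under 0.05, 6 at 2-fold or more, 7 with slide, 7 with scan day and 19 with the IVF and TSA arrays alone, the last chosen after seeing the data. At 2-fold or more 7 were called in TSA(+) minus IVF, 1 in Spi-C NT minus TSA(-) and 9 in Spi-C NT minus IVF, and in TSA(+) minus TSA(-) Tukey's test called 3 and the IVF and TSA arrays alone 1. Without the 2 arrays farthest in Spic, r between Spic and Eif1a was -0.83, -0.14 and -0.83 with A_51_P277884 in IVF, TSA(-) and TSA(+), and -0.31 with A_52_P331911 in IVF. With 1 array left out at a time the counts ran from 40 to 42 (IVF minus OC), 7 to 16 (TSA(-) minus IVF, 7 without IVF replicate 6), 12 to 17 (TSA(+) minus IVF), 0 to 0 (TSA(+) minus TSA(-)), 44 to 45 (OC minus Cumulus), 34 to 38 (IVF minus Cumulus), 14 to 17 (Spi-C NT minus TSA(-)), 23 to 26 (Spi-C NT minus IVF) and 0 to 0 (doses). Same-numbered arrays of different groups correlated at -0.09 to 0.15 in their deviations, and 1 pair exceeded 0.1. Some of them shared a slide, such as replicate 1 of OC and of TSA(-) and all same-numbered arrays of the Spi-C doses. These correlations cannot show that samples were unpaired. With the replicate number as a block the counts were 39, 8, 13, 0, 43, 37, 12, 25 and 0 in the same order. Slide and scan day could not be fitted as terms in comparisons with Cumulus or Spi-C NT. Causes of these changes were not tested. Dim probes limit Eif2ak2, Eif4ebp3 and Eif5a2 in oocytes. Eif2ak2 was dim in clones too, well above background on 7 of 8 TSA(-) arrays, 4 of 6 TSA(+) arrays and 3 of 4 at each Spi-C dose.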
